A study of Mus musculus with 6 samples.

Results

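The vacuolar ATPase (V-ATPase) and autophagy genes of mouse pancreatic cells were followed here in 2 genotypes of C57BL/6 mice, in samples labelled as isolated acinar cells. Both groups carry Ptf1aCre, a Cre recombinase expressed from a gene of the pancreatic and acinar lineage, and an oncogenic allele behind a loxP-flanked stop, which Cre removes. The labels give the KC group (n = 3) nothing further, while the KCS group (n = 3) also carries Setdb1flox/flox, that is, loxP sites in both copies of the gene for a histone H3 lysine 9 methyltransferase. Age and sex are not stated, and since nothing says that each sample was a separate animal, p-values measure only the spread between these samples, which may be technical. The members were all genes on the array whose symbol begins with Atp6v0, Atp6v1, Map1lc3 or Gabarap or with Atg and a number, together with Ulk1, Ulk2, Becn1, Sqstm1, Tfeb, Tfe3, Mitf, Lamp1, Lamp2, Vmp1 and Rb1cc1. They came to 57 of 23462 named genes, measured by 90 of 56605 probes, with 23 V-ATPase genes and 34 autophagy and lysosome regulator genes kept apart.

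The V-ATPase is a rotary proton pump that acidifies lysosomes, endosomes and secretory granules. Its peripheral V1 sector hydrolyses ATP, and its membrane V0 sector carries the protons through a ring of proteolipid subunits. Macroautophagy wraps cytoplasm in a double membrane: the ULK1 kinase complex starts it, a phosphatidylinositol 3-kinase complex with Beclin 1 marks the membrane, ATG9 and lipid transfer proteins feed it, 2 linked conjugation systems attach LC3 and GABARAP proteins to it, and fusion with the lysosome ends it. The transcription factors TFEB, TFE3 and MITF switch on lysosomal and autophagy genes. Pancreatic acinar cells hold large zymogen stores and depend on autophagy for the turnover of granules and endoplasmic reticulum, and autophagy that stalls before the lysosome is a known feature of pancreatitis.

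Levels are log2 of the processed signal of a probe minus the 75th percentile of its array, so a level of 0 is the signal at that percentile. Arrays give no counting depth, and their number, 3 per group, limits the precision. That 75th percentile was 61.2 to 68.6 scanner units on KC and 347 to 423 on KCS arrays, and 26550 to 27235 and 35365 to 35920 of 56605 probes were well above background. All 18 acinar markers fell (11 without KC replicate 2, KC replicate 3 or KCS replicate 2), with a median log2 fold change of -10.71, and the log2 of their summed signal was 15.53 to 15.77 in KC and 1.95, 4.39 and 11.51 in KCS replicates 1, 2 and 3. The KCS libraries labelled as acinar cells thus lacked most of the signal that defines that cell type, with the third holding more of it than the other two. Of the macrophage and osteoclast-like markers 18 of 18 rose, and of the fibroblast markers 11 of 12. Of the endothelial markers 8 of 9 rose (5 without KCS replicate 1 or KCS replicate 2), of the ductal markers 7 of 12 rose and 1 fell, and of the islet markers 7 of 8 fell (none with spike-in scaling). Of the neutrophil markers 6 of 8 rose and 1, Csf3r, fell. The log2 of their summed signal was 7.20 to 7.93 in KC and 6.69 to 6.85 in KCS. Most of that sum was Csf3r, at 7.17 to 7.92 in KC and 6.13 to 6.46 in KCS, so the sum does not speak for the other markers. Of the T and B cell markers 2 of 8 rose and 3 fell (1 without KCS replicate 2). The 2 risen, Cd3g and Cd79b, were likewise bright enough in KCS alone and had to be higher. The 3 fallen, Cd3e, Cd3d and Cd4, were the only markers of this list well above background on all 6 arrays. The summed log2 signal of the macrophage list was 5.91 to 6.50 in KC and 9.42 to 10.03 in KCS, and that of the fibroblast list 7.78 to 8.28 and 10.47 to 10.83. On the KC arrays Fcgr1, Dcstamp and Gpnmb of the macrophage list were not well above background, so these too had to be higher in KCS. The part that other cells had in the results below was not tested, and in bulk RNA fewer cells of a type and less RNA per cell cannot be told apart. The probe of Setdb1 was at -0.91, -1.05 and -0.32 in KC and -0.28, -0.44 and -0.55 in KCS (log2 fold change 0.33 ± 0.24 SE, limma adjusted p = 0.270). Whether it lies inside the floxed part is not known here, so it checks nothing about the genotype.

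KCS was compared with KC by limma over 27102 rows, each a gene or an unnamed probe. At an adjusted p under 0.05, 25.9% of all rows were higher and 34.4% lower in KCS (32.4% and 29.1% of rows with a gene symbol), so calls were common everywhere on the array. Of the 23 V-ATPase genes 18 passed the filter, a signal well above background on at least 3 of 6 arrays, of which 8 rose and 2 fell, while the other 8 were not called. Among the risen was Atp6v0d2, which passed that filter through KCS alone and so had to be higher there, and without it 7 of 17 rose and 2 fell (median 0.23 on the log2 scale). Over all 18 the median log2 fold change was 0.28, against -0.19 over all rows. Only 16263 of the 27102 rows have a gene symbol, and these were higher more often. Their median was not computed, so the gap of either member set to named genes is not known. Of the 34 autophagy and lysosome regulator genes all passed the filter, and 7 rose, 6 fell (10 without KC replicate 2) and 21 were not called, with a median of -0.05. Among the V-ATPase genes 10 of 18, and among the autophagy genes 21 of 34, had groups that did not overlap, where 68.2% of all rows did. In either direction 60.3% of all rows were called, a larger share than the 13 of 34 autophagy genes and close to that of the 10 of 18 V-ATPase genes. Of the tested members, 50 of 52 were well above background on all 6 arrays, the exceptions being Atp6v0a4 and Atp6v0d2.

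**Figure D1:**
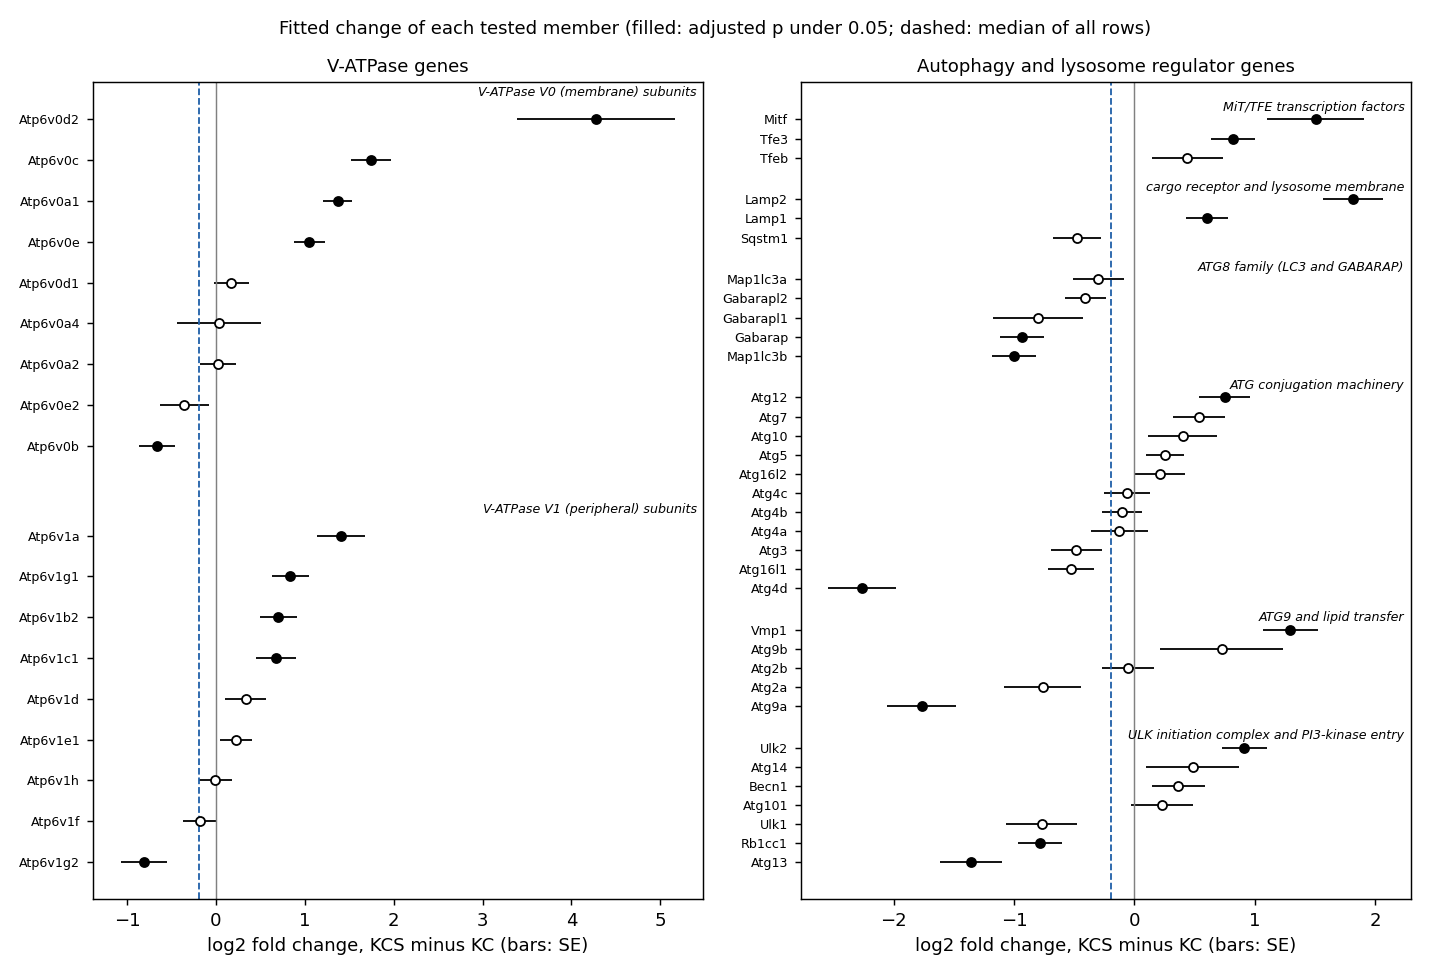
Fitted log2 fold change (KCS minus KC) with its standard error for each of the 52 tested members, V-ATPase genes at left and autophagy and lysosome regulator genes at right, ordered by role. Filled points have an adjusted p under 0.05, and the dashed line marks the median of all rows at -0.19. V-ATPase calls lie mostly to the right, where the position of Atp6v0d2 rests on KC values at background, while autophagy calls fall on both sides, from Atg4d at -2.26 to Lamp2 at 1.82; with spike-in scaling all 23 called members lie above 0.

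These changes are relative to the 75th percentile of each array. Scaling to the spike-in controls instead moved the median of all rows from -0.19 to 2.69 and put 51 of the 52 tested members higher in KCS, against 87.2% of all rows. Atg4d, at 0.62 (adjusted p = 0.0907), was the member that did not pass there. Every member described below as fallen was therefore above 0 with spike-in scaling. Each scaling subtracts a single value per array, so a gene's gap to the median of all rows is the same on both by construction. Atg4d lay 2.07 below that median, Atg9a 1.57, Atg13 1.17, Map1lc3b 0.81, Gabarap 0.74, Atp6v1g2 0.61, Rb1cc1 0.59 and Atp6v0b 0.47. Median centring moved the median of all rows to 0.16, with 33.8% higher and 26% lower, and turned no called member. There 10 V-ATPase genes were higher and 0 lower, and 11 autophagy genes higher and 5 lower. The direction of each call is thus a statement about the gene against the rest of the array.

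Lysosomal gene promoters often carry the motif that TFEB, TFE3 and MITF bind, whose core is TCACGTG. Of the members 46 had an entry in the RefSeq promoter table (GRCm38.p6, 250 bases before to 50 after a gene's start), with 58 windows. TCACGTG on either strand was found in 8 of these 58 windows, in 8 genes, and in 3.77% of all 32851 windows of that length. Matches on opposite strands overlap where the letters read TCACGTGA. The genes were Atp6v1a, Atp6v0e and Lamp1, which rose, Atp6v0b, which fell, and Atp6v0d1, Atg3, Atg7 and Atg14, which did not pass the test. With each of the 6 arrays left out in turn, Atp6v1a and Atp6v0e kept their calls in all 6 runs, Lamp1 in 3 and Atp6v0b in 2. Atp6v0b was also not called with median centring (-0.31, limma adjusted p = 0.242) and was at 2.22 with spike-in scaling. Shown are the 150 bases before the start of 2 risen genes, 1 fallen gene and 1 that did not pass, 5′ to 3′ on the gene's strand, with matches to the motif in capitals. They are Atp6v1a at chr16:44139260-44139409 (minus strand), Lamp1 at chr8:13159011-13159160 (plus), Atp6v0b at chr4:117887330-117887479 (minus) and Atg3 at chr16:45158679-45158828 (plus).
Atp6v1a: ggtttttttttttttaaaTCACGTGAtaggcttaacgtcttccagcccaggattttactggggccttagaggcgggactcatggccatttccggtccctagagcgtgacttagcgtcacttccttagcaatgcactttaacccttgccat
Lamp1: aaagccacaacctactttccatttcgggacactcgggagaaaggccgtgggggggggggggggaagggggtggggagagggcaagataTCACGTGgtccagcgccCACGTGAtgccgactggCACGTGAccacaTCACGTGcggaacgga
Atp6v0b: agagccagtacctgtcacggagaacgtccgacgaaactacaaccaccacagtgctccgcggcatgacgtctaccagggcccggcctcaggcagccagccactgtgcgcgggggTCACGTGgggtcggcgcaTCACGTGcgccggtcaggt
Atg3: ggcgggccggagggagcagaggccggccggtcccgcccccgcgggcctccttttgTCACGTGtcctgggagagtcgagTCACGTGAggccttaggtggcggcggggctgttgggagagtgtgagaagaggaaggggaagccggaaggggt
The stretch of Lamp1 holds 4 matches and that of Atp6v0b 2. Whether a match goes with the direction of change was not tested. A match is a run of letters and does not show that a factor binds there.

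In the V0 sector, 4 of 9 tested genes rose and 1 fell. Atp6v0c encodes the proteolipid that makes up most of the proton-carrying ring. Its level was 3.49, 3.56 and 3.23 in KC and 5.49, 5.18 and 4.83 in KCS (replicates 1 to 3, in that order here and below), so the groups lay well apart. It rose by 1.75 ± 0.23 (SE, adjusted p = 9.54e-04), and its second probe was at 1.43 (adjusted p = 0.00199). The other proteolipid of the ring is encoded by Atp6v0b, which went the other way. Atp6v0b was 3.74, 4.21 and 3.82 in KC and 3.44, 3.14 and 3.20 in KCS, and fell by 0.66 ± 0.20 (adjusted p = 0.0289). That call was lost without KC replicate 2 (-0.52, adjusted p = 0.0689), KC replicate 3 (-0.71, 0.0522), KCS replicate 2 (-0.60, 0.0984) or KCS replicate 3 (-0.63, 0.0756), with the replicate number as a block (0.0574) and with median centring (-0.31, 0.242).

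Atp6v0e, a small hydrophobic subunit, rose by 1.05 ± 0.17 (adjusted p = 0.00251). It was at 4.48, 4.80 and 4.66 in KC and 5.73, 5.77 and 5.59 in KCS, with no overlap. Its relative Atp6v0e2 was at -0.32, -0.21 and -0.51 in KC and -0.15, -1.05 and -0.90 in KCS, and did not pass (-0.35 ± 0.28, adjusted p = 0.304).

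The a subunits couple both sectors and steer the pump to its membrane. Atp6v0a1 was 2.12, 1.94 and 2.02 in KC and 3.46, 3.34 and 3.39 in KCS, with no overlap, and rose by 1.37 ± 0.16 (adjusted p = 6.44e-04). Its second, dimmer probe was at 0.35 (adjusted p = 0.175), so the rise rests on 1 of 2 probes. Atp6v0a2 overlapped between the groups, at 2.87, 3.12 and 2.92 in KC and 3.28, 2.91 and 2.79 in KCS (0.02 ± 0.20, adjusted p = 0.925). So did Atp6v0a4, the isoform known from kidney and inner ear, at -3.02, -1.70 and -2.56 in KC and -2.50, -3.06 and -1.62 in KCS (0.03 ± 0.47, adjusted p = 0.957). The a subunit of osteoclasts and activated immune cells is encoded by Tcirg1, which no member symbol covers. Tcirg1 rose by 1.71 (adjusted p = 0.00188).

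The d subunit sits on the ring as the socket of the central stalk. Its widely expressed form Atp6v0d1 was 2.96, 3.30 and 3.06 in KC and 3.48, 3.27 and 3.09 in KCS and did not pass (0.18 ± 0.19, adjusted p = 0.460). Atp6v0d2 encodes the form of osteoclasts and macrophages. Its KC values of -5.36, -3.91 and -5.13 were all too dim to be well above background, and KCS stood at 1.17, -0.40 and -2.36. Every KCS array was thus above every KC array, but the KCS arrays differed among themselves by more than the groups of most other members did. Because KC gives a bound only, Atp6v0d2 is given as at least 5.67-fold higher in KCS on the percentile scale (limma adjusted p = 0.00642). For each KC array the bound takes the dimmest probe still well above background, and the mean of these is set against the KCS mean. The bound was not computed with other scalings. Since the probe of Atp6v0d2 was tested only because it is high in KCS, its p-value is no support of its own. The fitted change against these dim values was 4.27 ± 0.89, or 1.74 with normexp on the median signals. Its second probe was well above background on 2 of 6 arrays and was not tested.

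Among the KCS arrays Atp6v0d2 was highest in replicate 1 and lowest in replicate 3, an order shared by 23 of the 52 tested members and by 13 of the 18 macrophage and osteoclast-like markers. The share of all rows with that order was not counted, so the order does not set these genes apart. Adgre1 and Ms4a7 of the marker list had the opposite order. The next 4 markers are given because they are known from cell fusion, osteoclasts or lysosomes, and were chosen after their values were seen. Dcstamp, which encodes a protein needed for cell fusion, ran from -5.20 to -4.92 in KC, not well above background, and stood at 2.60, 1.38 and -2.35 in KCS. Ocstamp, another fusion gene, was 0.78, 0.30 and -2.49 in KCS and -3.61 to -2.77 in KC. Acp5, the tartrate-resistant acid phosphatase of osteoclasts and some macrophages, was 7.88, 7.39 and 5.83 against 2.24 to 3.36. Cd68, a lysosomal glycoprotein of macrophages, spread less, at 4.92, 4.39 and 4.20 against 0.62 to 1.27. The part of such cells in the level of Atp6v0d2 was not tested.

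**Figure D2:**
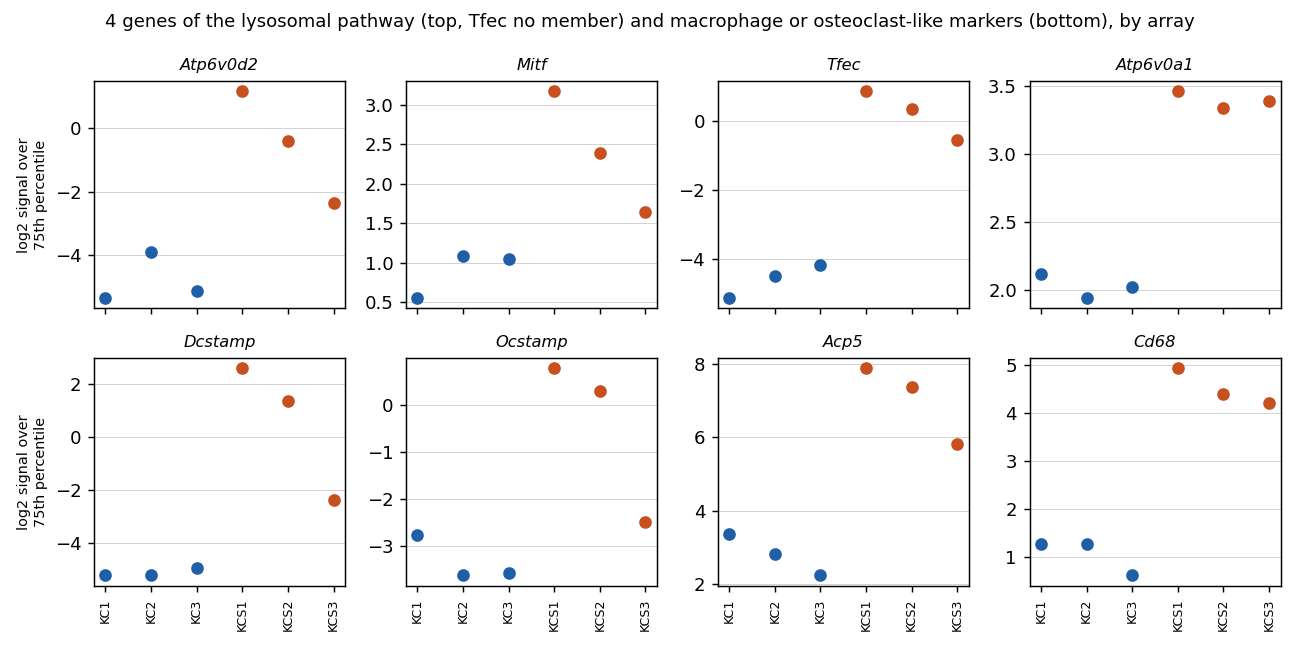
Level (log2 signal over the 75th percentile of the array) of 8 genes on each of the 6 arrays, KC in blue and KCS in orange, with a separate axis for each gene. The top row holds Atp6v0d2, Mitf, Tfec and Atp6v0a1 and the bottom row 4 macrophage and osteoclast-like markers. Atp6v0d2, Dcstamp and Ocstamp are highest in KCS replicate 1 and lowest in KCS replicate 3 among the KCS arrays, while Atp6v0a1 lies between 3.34 and 3.46 on all of them. The KC values of Atp6v0d2, Tfec and Dcstamp are not well above background.

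In the V1 sector 4 of 9 tested genes rose and 1 fell. Atp6v1a encodes the catalytic A subunit. It was 1.29, 2.17 and 1.53 in KC and 3.17, 3.18 and 2.85 in KCS and rose by 1.41 ± 0.27 (adjusted p = 0.00457). Its partner in the catalytic ring, the widely expressed B subunit gene Atp6v1b2, was 3.62, 3.72 and 3.66 in KC and 4.71, 4.25 and 4.14 in KCS. It rose by 0.70 ± 0.21 (adjusted p = 0.0242), and its second probe was at 0.75 (adjusted p = 0.0308). Both subunits of the ring that hydrolyses ATP therefore rose, the B subunit less firmly. The call of Atp6v1b2 was lost without KC replicate 1 (0.68, adjusted p = 0.0601), KC replicate 3 (0.70, 0.0603), KCS replicate 1 (0.53, 0.0648) or KCS replicate 2 (0.76, 0.0543), and within the second slide, which holds replicates 2 and 3 of both groups (0.51, 0.108).

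Atp6v1g1, part of the outer stalks, was 4.69, 5.13 and 4.63 in KC and 5.77, 5.69 and 5.50 in KCS and rose by 0.84 ± 0.21 (adjusted p = 0.0127), with 0.71 and an adjusted p of 0.0867 within the second slide. Atp6v1c1, the C subunit that joins stalk and membrane sector, was 0.33, 0.97 and 0.51 in KC and 1.43, 1.29 and 1.12 in KCS. It rose by 0.68 ± 0.22 (adjusted p = 0.0374), the largest p among the V-ATPase calls. That call was lost without any array but KC replicate 2: without KC replicate 1 (0.54, adjusted p = 0.0992), KC replicate 3 (0.63, 0.0973), KCS replicate 1 (0.60, 0.105), KCS replicate 2 (0.68, 0.0986) or KCS replicate 3 (0.76, 0.0538). It was also lost with the replicate number as a block (0.0554) and within the second slide (0.47, 0.198).

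Atp6v1g2, the form known from neurons, fell by 0.81 ± 0.26 (adjusted p = 0.0355), from -1.58, -2.30 and -1.56 in KC to -2.41, -2.61 and -2.85 in KCS. Its second probe went the other way, at 0.46 (adjusted p = 0.336), and with the mean of both probes the gene was at -0.17 (adjusted p = 0.503). Its call was also lost without KC replicate 1 (-0.69, adjusted p = 0.0955), KC replicate 3 (-0.68, 0.104), KCS replicate 2 (-0.81, 0.0893) or KCS replicate 3 (-0.70, 0.0984). It did not pass either with median centring (-0.45, adjusted p = 0.206), quantile normalization (-0.59, 0.108) or normexp (-0.16, 0.364).

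The remaining 4 tested V1 genes did not pass. Atp6v1e1, of the outer stalk, was 3.42, 3.69 and 3.38 in KC and 3.81, 3.78 and 3.58 in KCS (0.23 ± 0.18, adjusted p = 0.308). The central stalk genes Atp6v1d (0.33 ± 0.23) and Atp6v1f (-0.18 ± 0.19) and the regulatory H subunit gene Atp6v1h (-0.01 ± 0.19) had adjusted p-values of 0.242, 0.433 and 0.972. In the V1 sector, calls and non-calls thus both fell among subunits that are needed in every pump. With median centring Atp6v1d (0.69, adjusted p = 0.0393) and Atp6v1e1 (0.58, 0.0413) passed as higher.

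A further 5 V-ATPase members did not pass the filter. The tissue-restricted forms Atp6v1b1 and Atp6v1c2 were not well above background on any array, nor was Atp6v1fnb, which the symbol rule takes in although it is named as a neighbour of Atp6v1f and not as a subunit. Atp6v1e2, known from testis, was well above background on 1 KCS array. Atp6v1g3, known from kidney, could be measured on KC replicates 1 and 2, with KC at -1.39, -2.70 and -3.59, and on no KCS array, at -5.44, -6.94 and -6.73, and was not tested. Without any filter 8 V-ATPase genes were higher and 6 lower, where 15.4% and 53.5% of all rows were. The lower calls gained there were Atp6v1b1, Atp6v1c2, Atp6v1fnb and Atp6v1g3, 3 of which were at background throughout, and background lies lower on the scaled KCS arrays.

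**Figure D3:**
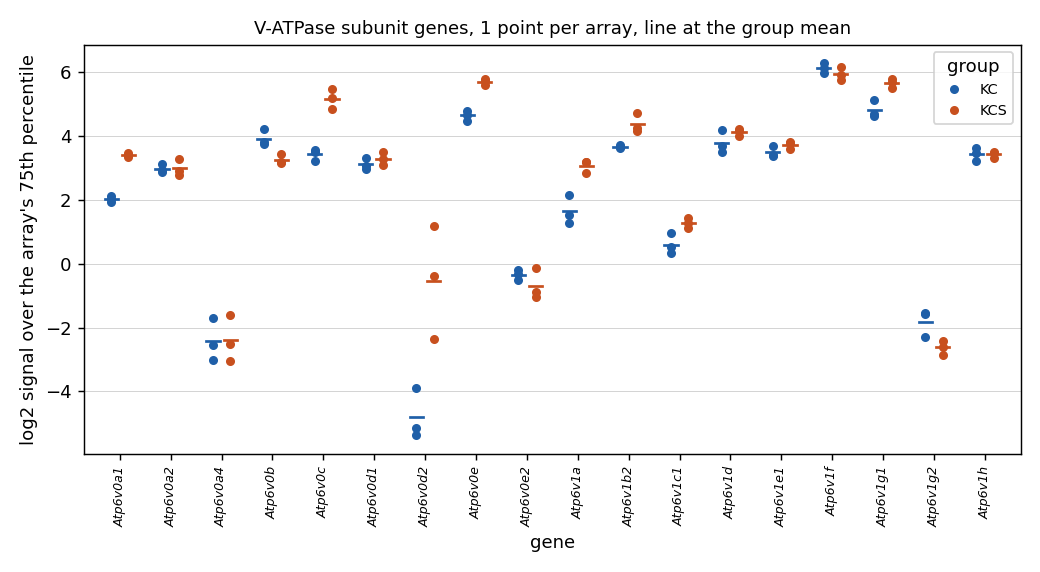
Level (log2 signal over the 75th percentile of the array) of the 18 tested V-ATPase genes, V0 sector first and then V1, with 1 point per array and a line at each group mean. Levels of different genes come from different probes and are not to be set against each other. KC and KCS points of Atp6v0a1, Atp6v0c, Atp6v0e and Atp6v1a lie apart, those of Atp6v0d1, Atp6v1f and Atp6v1h overlap, and Atp6v0d2 spans 1.17 to -2.36 within KCS.

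Among the 7 genes of the ULK complex and of entry to the phosphatidylinositol 3-kinase complex, 1 rose and 2 fell. Atg13, the adaptor of the ULK kinases, was 4.58, 3.86 and 4.55 in KC and 3.17, 2.78 and 2.97 in KCS and fell by 1.36 ± 0.26 (adjusted p = 0.00419). Rb1cc1, which encodes the scaffold FIP200, was 2.33, 1.94 and 2.25 in KC and 1.36, 1.48 and 1.32 in KCS. It fell by 0.79 ± 0.18 (adjusted p = 0.00985), and its other 5 probes ran from -1.24 to -0.03. The call of Rb1cc1 was lost with median centring (-0.43, adjusted p = 0.112) and within the second slide (-0.69, 0.0656). Ulk1, the main starting kinase, was 4.71, 4.19 and 5.18 in KC and 4.01, 4.12 and 3.64 in KCS. All KC arrays were above all KCS arrays, yet Ulk1 narrowly missed the threshold (-0.77 ± 0.29, adjusted p = 0.0599) and passed without KC replicate 2 (-1.02, 0.0219).

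The related kinase gene Ulk2 went the other way. It was 0.62, 0.31 and 0.27 in KC and 1.48, 1.23 and 1.25 in KCS and rose by 0.92 ± 0.19 (adjusted p = 0.00584), with a second probe at 0.85 (adjusted p = 0.0237). Becn1, the Beclin 1 gene, was -0.08, 0.54 and 0.16 in KC and 0.42, 0.71 and 0.59 in KCS and did not pass (0.37 ± 0.22, adjusted p = 0.187), nor did Atg14 (0.48 ± 0.38), which sends Beclin 1 to the site of autophagosome formation, or Atg101 (0.23 ± 0.26), which stabilises ATG13. With median centring Becn1 was at 0.72 (adjusted p = 0.0269).

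Of 5 genes for ATG9 and lipid transfer, 1 rose and 1 fell. Atg9a, which encodes the lipid scramblase of the seed vesicles, was 0.15, -0.28 and 0.56 in KC and -1.95, -1.29 and -1.63 in KCS and fell by 1.77 ± 0.29 (adjusted p = 0.00229). Vmp1 encodes another scramblase, of the endoplasmic reticulum, and is known to be induced in acinar cells in pancreatitis. It was 3.54, 3.97 and 4.18 in KC and 5.16, 5.38 and 5.03 in KCS and rose by 1.30 ± 0.23 (adjusted p = 0.00319), and by 1.74 on its second probe (adjusted p = 0.00351). The 2 scramblase genes thus moved in opposite directions. Atg9b did not pass (0.73 ± 0.51, adjusted p = 0.257), with KCS replicate 2 at 2.53 and the other KCS arrays at 0.46 and 1.05. The lipid transfer genes Atg2a (-0.76 ± 0.32, adjusted p = 0.0791) and Atg2b (-0.05 ± 0.22, 0.857) did not pass either. Without KC replicate 2 Atg2a passed as lower (-1.08, adjusted p = 0.0120).

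The conjugation machinery was the largest group and mostly did not pass: of 11 genes, 1 rose, 1 fell and 9 were not called. Atg4d, which encodes a protease that trims ATG8 proteins, was 4.73, 4.18 and 5.09 in KC and 2.38, 2.17 and 2.67 in KCS. It fell by 2.26 ± 0.28 (adjusted p = 8.12e-04), the largest fall among the autophagy members. The other 3 protease genes, Atg4a (-0.13 ± 0.24), Atg4b (-0.10 ± 0.16) and Atg4c (-0.06 ± 0.19), did not pass (adjusted p = 0.665, 0.613 and 0.803). Atg12, the ubiquitin-like modifier of ATG5, was 2.50, 2.59 and 2.88 in KC and 3.45, 3.63 and 3.14 in KCS and rose by 0.75 ± 0.21 (adjusted p = 0.0203). That call was lost without KC replicate 1 (0.67, adjusted p = 0.0579), KC replicate 2 (0.72, 0.0540), KCS replicate 1 (0.73, 0.0570) or KCS replicate 2 (0.64, 0.0773) and within the second slide (0.65, 0.115).

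Atg5 and Atg7, the genes most often deleted to block autophagy, did not pass, although their groups did not overlap. Atg5 was 2.38, 2.44 and 2.37 in KC and 2.71, 2.68 and 2.56 in KCS (0.26 ± 0.16, adjusted p = 0.201). Atg7, the activating enzyme of both systems, was 1.24, 1.26 and 1.40 in KC and 1.91, 2.12 and 1.49 in KCS (0.54 ± 0.21, adjusted p = 0.0669), and passed without KCS replicate 3 (0.71, 0.0291). Both were small differences in the same direction, and both passed as higher with median centring (0.61, adjusted p = 0.0236, and 0.89, 0.0168). The conjugating enzyme genes Atg3 (-0.48 ± 0.21, adjusted p = 0.0878) and Atg10 (0.40 ± 0.29, 0.263) and the scaffold gene Atg16l2 (0.21 ± 0.21, 0.399) did not pass. Atg3 passed as lower without KC replicate 1 (-0.66, adjusted p = 0.0283). The scaffold gene Atg16l1 lay at the threshold, with 2.85, 2.69 and 3.11 in KC, 2.38, 2.47 and 2.22 in KCS and -0.53 ± 0.19 (adjusted p = 0.0502), and passed without KC replicate 2 (-0.62, 0.0440).

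ATG8 proteins are the ubiquitin-like tags that coat the autophagosome and dock its cargo. Of the 5 genes 2 fell and none rose, with a median of -0.80 on the percentile scale. That median was -0.45 with median centring, -0.30 with normexp and -0.19 with quantile normalization, and all 5 were above 0 with spike-in scaling. Map1lc3b, the LC3 gene most used as an autophagy marker, was 6.22, 6.37 and 6.45 in KC and 5.51, 5.37 and 5.17 in KCS. It fell by 1.0 ± 0.18 (adjusted p = 0.00347), and its second probe was also at -1.0 (adjusted p = 0.00468). Gabarap was 7.0, 7.28 and 7.03 in KC and 6.29, 6.00 and 6.23 in KCS and fell by 0.93 ± 0.18 (adjusted p = 0.00488). With quantile normalization these were -0.43 (adjusted p = 0.0885) and -0.01 (0.953), and with normexp on the median signals Gabarap was at 0.10 (0.539). The fall of Gabarap thus held on the percentile scale and with median centring. It did not hold with quantile normalization, normexp or spike-in scaling (1.95). The deposited values match the percentile scale and are no further check.

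The other 3 ATG8 genes did not pass. Gabarapl1, a stress-induced member, was 7.08, 6.01 and 7.20 in KC and 6.33, 5.99 and 5.56 in KCS (-0.80 ± 0.38, adjusted p = 0.108), with KC replicate 2 inside the KCS range. Without that array it passed (-1.18, adjusted p = 0.0178), while with quantile normalization it was at 0.01 (0.980). Gabarapl2 was 4.88, 5.02 and 4.68 in KC and 4.48, 4.39 and 4.48 in KCS (-0.41 ± 0.17, adjusted p = 0.0827), and its second probe was at -0.53 (0.0366). Map1lc3a was 2.29, 2.59 and 2.17 in KC and 2.30, 2.04 and 1.82 in KCS (-0.30 ± 0.21, adjusted p = 0.261).

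Sqstm1 encodes p62, the receptor that carries ubiquitinated cargo to LC3 and builds up as a protein when autophagy stalls. Its level was 5.35, 5.60 and 5.78 in KC and 5.25, 5.16 and 4.89 in KCS, with no overlap, but it did not pass (-0.48 ± 0.20, adjusted p = 0.0782), and its second probe was at -0.02 (0.954). These arrays measure RNA and say nothing of p62 protein.

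Both lysosomal membrane glycoprotein genes rose. Lamp2, whose protein is needed for autophagosome fusion and for chaperone-mediated autophagy, was 2.75, 3.55 and 2.93 in KC and 4.95, 4.97 and 4.76 in KCS. It rose by 1.82 ± 0.25 (adjusted p = 0.00120), and its second probe was at 0.56 (adjusted p = 0.0309). Lamp1 was 6.87, 6.88 and 6.74 in KC and 7.63, 7.39 and 7.29 in KCS and rose by 0.61 ± 0.18 (adjusted p = 0.0233), with a second probe at 0.97 (0.00485). Its call was lost without KC replicate 3 (0.56, adjusted p = 0.0647), KCS replicate 1 (0.51, 0.0759) or KCS replicate 2 (0.63, 0.0646) and within the second slide (0.53, 0.104), while with quantile normalization it was at 1.81.

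Of the MiT/TFE factors, Mitf and Tfe3 rose and Tfeb did not pass. Tfe3 was 3.30, 3.32 and 3.38 in KC and 4.36, 4.16 and 3.95 in KCS and rose by 0.82 ± 0.18 (adjusted p = 0.00772), with 0.70 and an adjusted p of 0.0524 within the second slide. Mitf was 0.55, 1.08 and 1.04 in KC and 3.17, 2.39 and 1.64 in KCS, and rose by 1.51 ± 0.40 (adjusted p = 0.0171). The KCS arrays differed widely, with a change of 2.62 on the first slide and 0.95 on the second (adjusted p = 0.0640 for the second). Without KC replicate 1 the call of Mitf was lost (1.34, adjusted p = 0.0513), and its other probes were at 1.07 (0.0336) and 0.55 (0.178). Tfeb was -1.43, -1.59 and -1.24 in KC and -0.46, -0.94 and -1.53 in KCS (0.44 ± 0.30, adjusted p = 0.238). Tfec belongs to the same family, is expressed in macrophages and is no member here. It was not well above background in KC and stood at 0.87, 0.34 and -0.54 in KCS. On the percentile scale it was at least 9.56-fold higher there (limma adjusted p = 2.44e-04). Tfec passed the filter through KCS alone and so had to be higher, which leaves that p-value no support of its own.

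**Figure D4:**
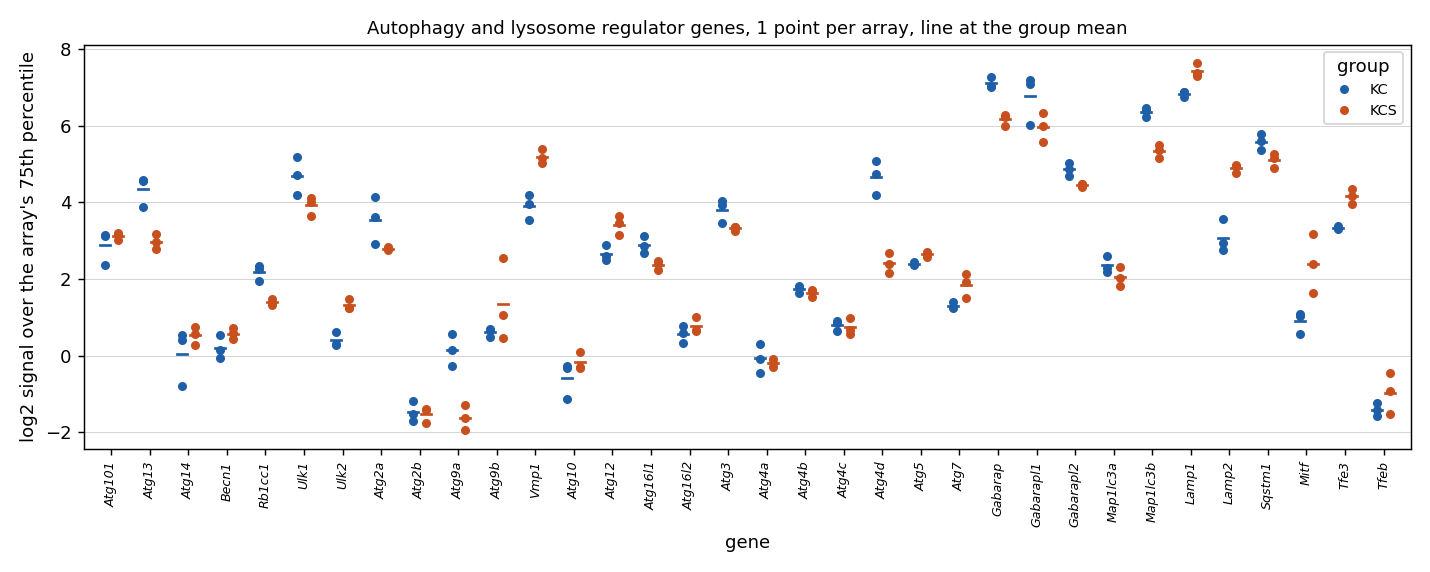
Level (log2 signal over the 75th percentile of the array) of the 34 autophagy and lysosome regulator genes, ordered by role from initiation to the transcription factors, with 1 point per array and a line at each group mean. KC points lie above KCS points for Atg13, Atg9a, Atg4d, Gabarap and Map1lc3b, whose changes are above 0 with spike-in scaling, and below them for Ulk2, Vmp1, Atg12, Lamp2 and Tfe3. Atg4b, Atg4c and Atg101 overlap.

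A factor common to all probes of an array cancels in the difference between 2 genes on it, though quantile normalization and normexp can still change that difference. Of 18 pairs of tested isoforms or paralogs compared in this way, 16 had both genes well above background on all 6 arrays, and 4 further pairs had an untested gene. The pairs with Atp6v0d2 and Atp6v0a4 did not, and no difference is given for them. An exact two-sided permutation test with 3 against 3 samples cannot go below p = 0.1, and after Benjamini-Hochberg adjustment over the 18 pairs the smallest was 0.15, so no pair could pass. Groups did not overlap in 11 of these 16 pairs. The share among gene pairs in general was not counted, and among single rows it was 68.2%, so the count does not set these pairs apart. The difference Atg9b minus Atg9a was 2.49 larger in KCS, Ulk2 minus Ulk1 1.68 and Lamp2 minus Lamp1 1.21 (exact p = 0.1 for each). Ulk2 and Ulk1 had the steadiest of these shifts, at 1.56 on the first slide and 1.75 on the second. Lamp2 minus Lamp1 was 0.40 with the mean of each gene's probes and 0.16 with quantile normalization, and Atg9b minus Atg9a was 1.60 with normexp.

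In the other direction, Atg4d minus Atg4b was -2.16, Atp6v1g2 minus Atp6v1g1 -1.64, Atp6v0e2 minus Atp6v0e -1.40 and Atp6v0a2 minus Atp6v0a1 -1.35 (exact p = 0.1 for each). The a subunit pair was at -1.0 and the g subunit pair at -1.01 with the mean of each gene's probes. Mitf minus Tfeb was 1.07 larger in KCS, Atg16l2 minus Atg16l1 0.74, Atg2b minus Atg2a 0.71 and Map1lc3a minus Map1lc3b 0.70 (exact p = 0.1 for each). The last of these was 0.083 with quantile normalization and 0.19 with normexp. With the mean of each gene's probes, Atg2b minus Atg2a was 0.53 (exact permutation p = 0.2). The pairs Tfe3 minus Tfeb, Gabarapl1 minus Gabarap, Gabarapl1 minus Gabarapl2, Atg4a minus Atg4b and Atg4c minus Atg4b overlapped. A shift in such a difference shows that both genes changed unequally, not which of them moved.

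**Figure D5:**
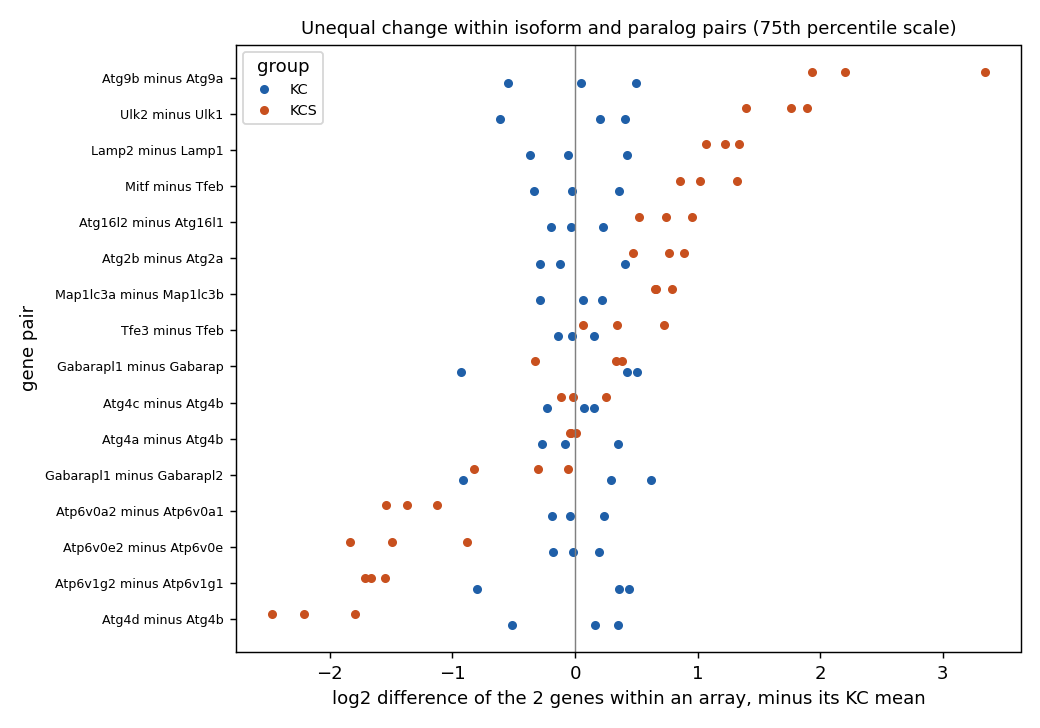
Log2 difference of 2 genes within each array, minus the mean of that difference over the KC arrays, for 16 pairs of isoforms or paralogs on the 75th percentile scale, with KC in blue and KCS in orange. The KCS points of Atg9b minus Atg9a lie farthest to the right (mean shift 2.49) and those of Atg4d minus Atg4b farthest to the left (-2.16), while Atg4a, Atg4c and the Gabarapl1 pairs overlap with KC.

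Other genes of the same pathways, listed beside the members, moved in both directions. Among accessory proteins of the V-ATPase and Tcirg1, 4 of 11 rose and 2 fell. Atp6ap1, the accessory subunit that guides assembly, rose by 1.66 (adjusted p = 0.00168), and Tldc2, a TLDc domain gene, fell by 4.45 (1.47e-04). Of 11 other genes of the phosphatidylinositol 3-kinase complex and WIPI family 5 rose and 2 fell (7 and 0 with median centring), but the risen count was 0 without KCS replicate 2, 1 without KCS replicate 1, 2 without KC replicate 2 and 3 without KC replicate 1 or KCS replicate 3. Wipi2, which recruits ATG16L1, was at -0.91 (adjusted p = 0.0102; -0.56 and 0.0651 with median centring), Wdr45 at -0.79 (0.0142; -0.44 and 0.129) and Uvrag, of the endosomal complex, at 0.83 (0.0157). The Uvrag call was lost without KCS replicate 1 (adjusted p = 0.0516) or KCS replicate 2 (0.0620).

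Of 14 cargo receptors other than Sqstm1, 2 rose and 6 fell, with a median of -0.47, but 4 were higher and 4 lower with median centring and 12 and 1 with spike-in scaling. Retreg1 and Ccpg1, both receptors for autophagy of the endoplasmic reticulum, fell by 4.21 (adjusted p = 7.85e-05) and 2.15 (2.34e-04), while Optn rose by 1.73 (4.64e-04). Ccpg1 was at 0.73 with spike-in scaling, which cannot alter its place below the median of all rows, and Retreg1 stayed below 0. Of 13 genes for fusion with the lysosome 2 rose and 1 fell (5 and 1 with median centring): Vps18, of the HOPS tether, rose by 1.20 (adjusted p = 0.00183), Plekhm1 by 1.34 (0.00661), and the SNARE gene Ykt6 fell by 1.41 (0.00434). Averaged over its probes, Plekhm1 was at 0.63 and was not called (adjusted p = 0.358). Of 19 genes listed for mTORC1 and nutrient sensing at the lysosome, 3 rose and 5 fell, against 5 and 2 with median centring and 18 and 1 with spike-in scaling. Among the 3 risen was the transcription factor gene Tfec, which passed the filter through KCS alone and so had to be higher. Among the fallen was Rragd, a Rag GTPase gene, which fell by 3.83 (1.08e-04). In that list 1 gene rose without KCS replicate 1 or KCS replicate 2, and 3 fell without KCS replicate 2. Lamtor5, of the Ragulator complex, fell by 1.52 (0.00224).

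Of 32 hydrolase genes other than cathepsins, 21 rose and 4 fell, with a median of 1.25, and 25 were higher and 1 lower with median centring. Of the 32, 2 passed the filter through KCS alone. Lgmn, which encodes a protease that cuts after asparagine, rose by 3.68 (adjusted p = 1.47e-04) and the sulfatase gene Galns by 2.58 (1.54e-04). Of 21 other lysosomal membrane genes 6 rose and 1 fell (10 and 1 with median centring), and 2 fell without KC replicate 1 or KCS replicate 1. The 3 with the smallest p-values were Laptm5 (4.07, adjusted p = 2.89e-04) and Cd68 (3.46, 2.11e-04), which leukocytes express, and the sterol carrier Npc2 (2.79, 1.97e-04). The protein of Npc2 is soluble, so this list does not hold membrane proteins alone. Of all rows 25.9% were higher and 34.4% lower (32.4% and 29.1% of rows with a gene symbol). The share of risen genes in the membrane list was close to that of all rows, and 14 of the 21 were not called. Whether these lists differ from the members beyond chance was not tested. Acp5 of the hydrolases and Cd68 are also among the macrophage markers, whose median change was 4.10, so the lists are not separate. The part of macrophages was not tested.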

How the data were processed

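Per the labels' protocols, column-purified RNA went through whole-transcriptome amplification and Cy3 labelling before it was hybridised to 6 one-colour Agilent arrays. The deposited scanner files hold intensity values in scanner units, made with Agilent Feature Extraction 12.0.3.1 per the file headers, which corrected the processed signal for background. The deposited value table holds log2 values of 36110 non-control probes, centred on each probe's median over the 6 arrays. Set against the scanner values, scaled and centred likewise, it had the same direction (r of 0.999 or above).

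Here outlier spots were left out (88 to 140 per array), spots of a probe were averaged on the log2 scale and each array's 75th percentile was subtracted. A probe counted as well above background where most of its spots, or an equal number, were, and no spot was saturated. Probes were named by accession through RefSeq records of GRCm38.p6 (33767 probes, 23462 genes), and the files name another build. The probe with the highest mean stood for a gene. KCS was compared with KC by limma 3.58.1 in R 4.3.3 (lmFit, eBayes, two-sided, no covariates), with Benjamini-Hochberg adjustment over 27102 rows, and every adjusted p of a single gene is limma's. The step was checked on simulated data. Python 3.11.15 (scipy 1.17.1, matplotlib 3.10.9) served for the rest.

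The members, lists and rules were chosen with earlier results of these data known. By rule, sample values are given for the 6 called members with the largest change in each direction in each set, V-ATPase isoform families and the well-known autophagy genes, and up to 3 genes with the smallest p of each other list are named. Same-numbered samples did not deviate together throughout, so the replicate number was not used as a block. Replicate 1 of both groups lay on one slide and the other 4 arrays on another. The planned normexp correction on mean signals was run on median signals, which the files hold, an alternative added after seeing the data. The oncogenic allele and 1 gene of these lists are not reported here.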

Additional observations from a re-analysis of the deposited data

How the results depend on the processing

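V-ATPase genes higher in KCS were 5 within the second slide and at a threshold of 0.01, and 18 with spike-in scaling. V-ATPase genes lower in KCS were 0 with median centring, spike-in scaling and a threshold of 0.01, 1 with trend and robust eBayes, the mean of probes, quantile normalization, normexp, the replicate block and the second slide, 6 without the filter and 0 to 2 with single arrays left out. The median log2 fold change of V-ATPase genes was 0.63 with median centring, 0.033 without the filter, 0.46 with normexp, 0.47 with quantile normalization and 3.16 with spike-in scaling, and 0.19 to 0.46 with single arrays left out. The autophagy genes higher in KCS were 11 with median centring, 33 with spike-in scaling, 3 within the second slide and 4 at 0.01, and the autophagy genes lower in KCS 12 with trend and robust eBayes, 0 with spike-in scaling and 6 to 10 with single arrays left out. The median log2 fold change of autophagy genes was 0.30, 0.12, 0.053 and 2.82 with median centring, normexp, quantile normalization and spike-in scaling, and -0.11 to 0.043 with single arrays left out. The causes were not tested, other than that the second slide has fewer samples and that spike-in scaling shifts all rows.

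Of 23 called members 16 kept their call without each array in turn. All 23 kept it with the slide as a block, and 21 with the replicate block, which ended the calls of Atp6v0b and Atp6v1c1. The deviations of same-numbered samples correlated at 0.331, 0.0433 and 0.143, so the numbers were not taken as pairs, and KC replicate 2 correlated better with KCS replicate 3 (0.0880). With spike-in scaling these turned to above 0: Atg13 1.52, Atg16l1 2.35, Atg2a 2.12, Atg2b 2.83, Atg3 2.40, Atg4a 2.75, Atg4b 2.78, Atg4c 2.82, Atg4d 0.62, Atg9a 1.11, Atp6v0b 2.22, Atp6v0e2 2.53, Atp6v1f 2.70, Atp6v1g2 2.07, Atp6v1h 2.87, Gabarap 1.95, Gabarapl1 2.08, Gabarapl2 2.47, Map1lc3a 2.58, Map1lc3b 1.88, Rb1cc1 2.09, Sqstm1 2.40, Ulk1 2.11, Ccpg1 0.73, Lamtor5 1.36, Wdr45 2.09, Wipi2 1.97 and Ykt6 1.47. With normexp Atp6v1f was 0.49 and Gabarap 0.10. Signal near background limits Atp6v0d2 and the 5 untested V-ATPase genes.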

Other observations

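Several members with more than 1 probe gave values that were not alike, and these are listed as values without an explanation. Atg4b, which did not pass on its brighter probe (-0.10), was at -0.56 on the other (adjusted p over all probes 0.0412), and Atg10 was at 0.40 and 0.63 (0.0306 for the second). Lamp2 was at 1.82 and 0.56, Mitf at 1.51, 1.07 and 0.55, and the 6 probes of Rb1cc1 spanned -1.24 to -0.03. By contrast Map1lc3b gave -1.0 on both probes, Ulk2 0.92 and 0.85, and Atp6v1b2 0.70 and 0.75.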
